A study of Mus musculus with 8 samples.

Results

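The genes described here are 52 members of the Wnt pathway in mouse colon fibroblasts: ligands, R-spondins, proteins that process or secrete the ligands, secreted antagonists, receptors, and the proteins that carry the signal to the nucleus or feed back on it. They were named by symbol and matched to 52 of the 55573 genes listed in the count files. The fibroblasts were of the C57BL6/J strain and were kept on culture plates in Advanced DMEM F12 with serum and exposed to APTKA conditioned medium (the labels leave APTKA unexplained). The series concerns inflammatory fibroblasts and resistance to therapy given before surgery in rectal cancer. The irradiated group (4 libraries) was given 3 fractions of 2 Gy and was collected 72 h after the first dose. The non-irradiated group (4 libraries) was given none, and its time is also listed as 72 h. Both groups had the conditioned medium, so the comparison concerns irradiation in its presence. The design text calls the samples independent without saying whether separate animals or cultures are meant, so the p-values may reflect technical spread alone.

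Wnt proteins are lipid-modified ligands that bind Frizzled receptors together with the co-receptors Lrp5 and Lrp6, or with Ror2 or Ryk in branches that do not need beta-catenin. In the canonical branch the complex of Axin and Apc stops degrading beta-catenin, which then enters the nucleus and acts with TCF/LEF factors. R-spondins strengthen the signal by removing the ubiquitin ligases Znrf3 and Rnf43, which clear Frizzleds from the cell surface. In the gut wall, mesenchymal cells around the crypts supply Wnts, R-spondins and antagonists to the epithelial stem cells.

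Libraries held 30203137 to 36497990 counts in the irradiated group and 28731227 to 37157216 in the non-irradiated group. All 13 fibroblast markers passed the filter on low counts. Their summed level was 15170 to 16489 CPM (counts scaled to library size) in irradiated and 16638 to 19563 CPM in non-irradiated libraries. Most of that sum is the collagen genes Col1a1, Col1a2 and Col3a1. Col1a2 and Vim, 2 of the 13 markers, were called lower in irradiated cells, 15.4%, against 4.15% of all tested genes. The fitted change was negative for 10 markers and positive for 3 (Dcn, Lum and Pdpn). Smooth muscle and pericyte markers, 9 genes, summed to 622 to 756 CPM in irradiated and 754 to 821 CPM in non-irradiated libraries. Most of that sum is Acta2 and Actg2. Of the 8 tested, these 2 were called lower in irradiated cells, 25%, against 4.15% of all tested genes. The fitted change was positive for 4 of the 8 and negative for 4. The part of these shifts in the results on Wnt pathway genes was not tested. Epithelial markers, 12 genes, summed to 1.32 to 1.68 CPM in irradiated and 1.11 to 2.42 CPM in non-irradiated libraries, and immune markers, 10 genes, to 4.60 to 5.96 CPM in irradiated and 3.97 to 5.44 CPM in non-irradiated libraries. Endothelial markers, 9 genes, summed to 5.63 to 6.68 CPM in irradiated and 5.18 to 5.85 CPM in non-irradiated libraries. Epcam, the defining epithelial marker, averaged 0.0138 CPM in irradiated and 0.0167 CPM in non-irradiated libraries. Irradiated libraries I and II stood apart in the mitochondrial rRNA genes, at 15271 and 15425 CPM, against 4203 to 5906 CPM in the other 6 libraries. Leaving both out ended the calls of Fzd4, Gpc6 and Myc and moved several uncalled values, as given with those genes.

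Few Wnt pathway genes were called between irradiated and non-irradiated fibroblasts. Of the 52 members 39 passed the filter on low counts, and 2 of these were called at an adjusted p under 0.05 by edgeR's quasi-likelihood test over all genes. Cpz, a carboxypeptidase with a Frizzled-like domain, was higher in irradiated cells and the receptor gene Fzd4 was lower. These 2 calls are 5.13% of the tested members, whereas 6.74% of all 15259 tested genes were called, 2.59% higher and 4.15% lower, so the share of members called was near the background. At an unadjusted p under 0.05 there were 7 members of 39, against 21.2% of all genes. The median log2 fold change of the tested members, irradiated over non-irradiated, was -0.03, and that of all tested genes was 0.00. The median absolute log2 fold change was 0.09 in both. For 34 of the 39 members the 95% interval of the fold change lay within 1.5-fold in either direction, as it did for 78.2% of all genes. In bulk samples, fewer cells of a type and less RNA per cell cannot be told apart.

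**Figure D1:**
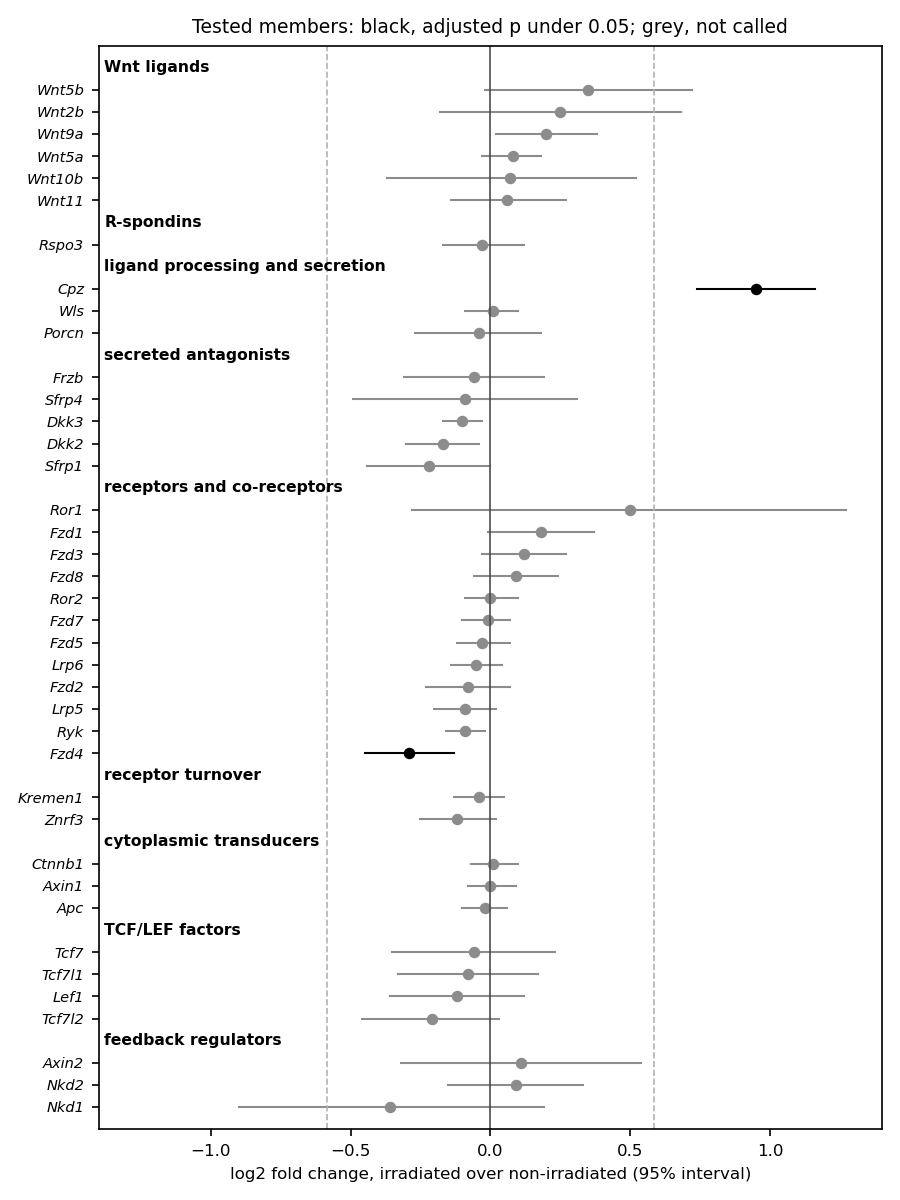
Log2 fold change of irradiated over non-irradiated libraries (points) with its 95% interval (lines) for the 39 tested members by role, with black for an adjusted p under 0.05 and dashed lines at a 1.5-fold change. Cpz at 0.95 lies right of the upper dashed line, Fzd4 at -0.29 lies left of 0, and the wide intervals belong to genes of low count such as Ror1 and Nkd1.

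The promoters of the 2 called members are shown because these are the members whose transcript levels passed the test. The sequences are RefSeq windows on build GRCm38.p6 that run from 250 bases before to 50 bases after the annotated start, a region in which TCF/LEF sites may lie. The letters searched were ATCAAAG, a core TCF/LEF sequence, on both strands (CTTTGAT on the other), and matches are in capitals.
Cpz, chr5:35525577-35525876, minus strand: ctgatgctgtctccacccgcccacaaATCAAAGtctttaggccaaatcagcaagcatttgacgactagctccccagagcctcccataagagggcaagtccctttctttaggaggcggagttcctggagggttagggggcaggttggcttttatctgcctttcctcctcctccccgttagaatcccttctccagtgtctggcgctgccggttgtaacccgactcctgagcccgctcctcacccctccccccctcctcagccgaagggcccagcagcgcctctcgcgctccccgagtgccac
Fzd4, chr7:89404116-89404415, plus strand: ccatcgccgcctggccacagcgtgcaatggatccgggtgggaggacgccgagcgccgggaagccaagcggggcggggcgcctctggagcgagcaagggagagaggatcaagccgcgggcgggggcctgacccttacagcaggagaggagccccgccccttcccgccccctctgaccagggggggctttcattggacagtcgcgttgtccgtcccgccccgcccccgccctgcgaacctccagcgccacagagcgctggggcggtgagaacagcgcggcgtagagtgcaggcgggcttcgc
The Cpz window holds 1 match, which begins 224 bases before the start, and the Fzd4 window holds none. The GC content of the windows is 60.3% for Cpz and 72.7% for Fzd4. RefSeq windows were found for 34 of the 52 members, and 3 of these (Cpz, Wnt5b and Wnt11) held the letters in at least 1 window, 8.82%, against 4.29% of the 27025 genes with a window. A match of these letters is a description and does not show that a factor binds there.

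Cpz belongs to the genes that process or secrete ligands. It encodes carboxypeptidase Z, an extracellular enzyme with a cysteine-rich domain like that of Frizzled receptors, and in the chick it is known to enhance Wnt4 signalling. Cpz (ENSMUSG00000036596) is protein-coding and lies on chromosome 5 from 35502218 to 35525698 of mm10. Cpz was at 6.80, 6.02, 6.47 and 7.05 CPM in irradiated libraries I to IV, against 3.59, 3.62, 2.90 and 3.56 CPM in non-irradiated libraries I to IV. The groups did not overlap. In all, 5 of the 39 tested members had groups that did not overlap, 1 higher (Cpz) and 4 lower (Fzd4, Dkk2, Dkk3 and Ryk). That is 12.8%, against 14.2% of all tested genes, 6.13% higher and 8.07% lower. The mean was 6.59 ± 0.445 CPM in irradiated and 3.42 ± 0.349 CPM in non-irradiated cells (SD, n = 4 each), a 1.93-fold rise with a 95% interval of 1.67 to 2.24 (SE 0.10 on a log2 fold change of 0.95, adjusted p = 6.51e-05). Cpz was the one tested member of 39 whose fitted change exceeded 1.5-fold, which 2.68% of all genes did. Leaving out any 1 library kept the call, with log2 fold changes from 0.87 to 0.99 and adjusted p up to 0.000417.

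The other members of the class of Cpz, Wls and Porcn, were not called. Wls carries lipid-modified Wnts to the cell surface and was abundant, at 352, 347, 332 and 339 CPM in irradiated libraries and 319, 366, 333 and 347 CPM in non-irradiated libraries. Its groups overlapped throughout (95% interval 0.94-fold to 1.07-fold, adjusted p = 0.958), and the sign of the fitted change turned in 6 of the alternative settings. Porcn, the acyltransferase that adds the lipid to Wnts, averaged 6.18 ± 0.817 CPM in irradiated and 6.37 ± 0.536 CPM in non-irradiated cells (adjusted p = 0.854), and its log2 fold change of -0.04 was -0.20 without both irradiated libraries I and II. Per kilobase of exon, the scale on which different genes are compared here, Wls stood at 38.9 CPM per kb over the 8 libraries, Cpz at 2.23 and Porcn at 2.09. Cpz exceeded Porcn in 4 of 8 libraries, those of the irradiated group, where Cpz averaged 2.93 and Porcn 2.06 CPM per kb. In non-irradiated libraries Cpz averaged 1.52 and Porcn 2.12 CPM per kb.

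**Figure D2:**
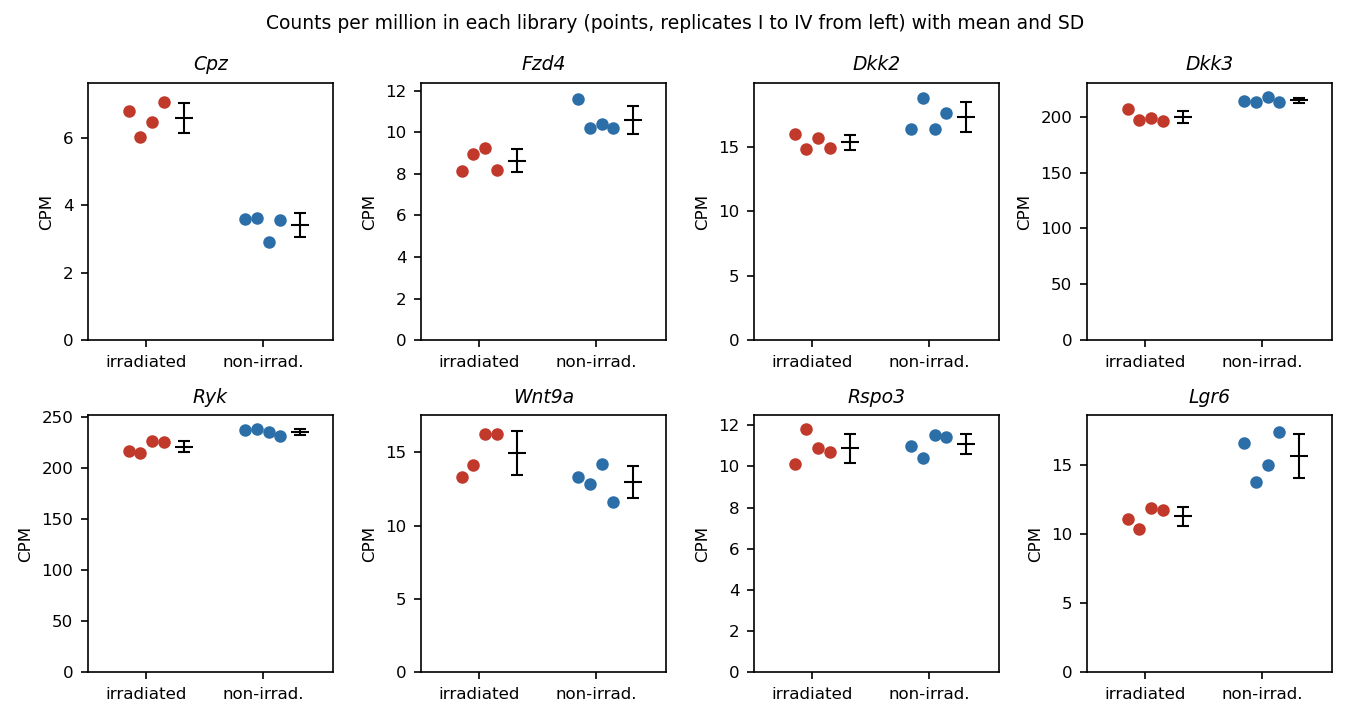
CPM of 8 Wnt pathway genes in each library (points, replicates I to IV from left within a group), with mean and SD. Cpz separates upward in irradiated libraries and Fzd4 and Lgr6 downward, Dkk2, Dkk3 and Ryk separate downward by less, and Wnt9a and Rspo3 overlap.

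Fzd4, the other called member, encodes a Frizzled receptor that also binds the ligand norrin in the eye. The gene (ENSMUSG00000049791) is protein-coding and lies on chromosome 7 from 89404355 to 89413134 of mm10. It was at 8.13, 8.96, 9.25 and 8.17 CPM in irradiated libraries, against 11.6, 10.2, 10.4 and 10.2 CPM in non-irradiated libraries. Every irradiated library was below every non-irradiated one. Fzd4 fell to 8.63 ± 0.564 CPM in irradiated cells, against 10.6 ± 0.691 CPM in non-irradiated cells (SD, n = 4 each; 0.82-fold, 95% interval 0.73 to 0.91, SE 0.07 on a log2 fold change of -0.29, adjusted p = 0.0325). That call was lost without irradiated library I (adjusted p = 0.0960) or IV (0.101), without non-irradiated library I (0.0859) or IV (0.0505), and without both irradiated libraries I and II (0.156) or both non-irradiated libraries I and III (0.127). The direction was the same in all 19 alternative settings.

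Frizzled genes differed far more from each other than between groups. In CPM per kb over the 8 libraries, Fzd7 stood highest at 26.8, then Fzd2 at 8.56, Fzd1 at 7.31, Fzd5 at 3.44, Fzd8 at 3.35, Fzd4 at 1.43 and Fzd3 at 0.684. Each gene exceeded the next in 8 of 8 libraries, except that Fzd5 exceeded Fzd8 in 5 of 8. Fzd7 averaged 121 ± 3.93 CPM in irradiated and 122 ± 3.64 CPM in non-irradiated cells (0.99-fold, 95% interval 0.94 to 1.05, adjusted p = 0.901). Fzd1 averaged 32.6 ± 3.68 CPM in irradiated and 28.8 ± 3.46 CPM in non-irradiated cells (log2 fold change 0.18, adjusted p = 0.264) and was not called, also without both irradiated libraries I and II (0.31, adjusted p = 0.105). Fzd2 averaged 30.5 ± 3.19 CPM in irradiated and 32.2 ± 1.76 CPM in non-irradiated cells (log2 fold change -0.08, adjusted p = 0.575). Fzd6 had 25 counts in irradiated and 37 in non-irradiated libraries and was not tested. Fzd3, Fzd5 and Fzd8 had log2 fold changes between -0.03 and 0.12 and were not called.

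Co-receptors and alternative receptors ranked high per kilobase of exon, with Ryk at 50.3, Lrp6 at 41.9 and Lrp5 at 13.2 CPM per kb over the 8 libraries. Lrp6, the co-receptor that binds Axin when Wnt is present, had the highest CPM of its class at 557, 571, 540 and 581 in irradiated libraries and 587, 619, 548 and 575 in non-irradiated libraries. The groups overlapped (0.97-fold, 95% interval 0.91 to 1.03, adjusted p = 0.530). Lrp5 was at 124 ± 4.74 CPM in irradiated and 132 ± 9.76 CPM in non-irradiated cells (adjusted p = 0.344). Ryk, a Wnt-binding receptor with an inactive kinase domain, was at 217, 215, 226 and 225 CPM in irradiated libraries, against 237, 238, 235 and 231 CPM in non-irradiated libraries. Its groups did not overlap, yet it missed the threshold over all genes (0.94-fold, 95% interval 0.89 to 0.99, adjusted p = 0.121). Ror2, the receptor tyrosine kinase that binds Wnt5a, was at 99.9 ± 4.11 CPM in irradiated and 99.7 ± 4.04 CPM in non-irradiated cells (95% interval 0.94-fold to 1.07-fold). Its relative Ror1 was near the limit of measurement, with 8, 17, 18 and 11 counts in irradiated and 10, 7, 6 and 13 counts in non-irradiated libraries. Its interval of 0.83-fold to 2.41-fold was the widest of all tested members on the log scale. Over the 8 libraries Ror2 stood at 23.5 CPM per kb and Ror1 at 0.0594.

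No Wnt ligand was called, and the highest of them, per kilobase of exon, stood below Fzd7, Fzd2 and Fzd1. Wnt5a, a ligand of the branches that do not need beta-catenin, had the highest CPM, at 35.9, 35.2, 37.2 and 36.0 in irradiated libraries and 34.2, 37.3, 32.8 and 32.5 in non-irradiated libraries. The groups overlapped (1.06-fold, 95% interval 0.98 to 1.14, adjusted p = 0.403). Wnt9a was at 13.3, 14.1, 16.2 and 16.2 CPM in irradiated libraries and 13.3, 12.8, 14.2 and 11.6 CPM in non-irradiated libraries, with overlapping groups (1.15-fold, 95% interval 1.02 to 1.3, adjusted p = 0.180). Its log2 fold change of 0.20 was 0.31 without both irradiated libraries I and II (adjusted p = 0.0773). Per kilobase of exon the levels of these genes were close, 4.49 CPM per kb for Wnt5a and 4.20 for Wnt9a, and Wnt5a was the higher in 5 of 8 libraries. They made up 39.8% and 37.2% of the summed level of the 9 ligands among the members, and Wnt11 followed with 13.5%.

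Among the lower ligands, Wnt5b was at 1.13, 0.969, 1.10 and 1.05 CPM in irradiated libraries and 0.767, 0.763, 0.975 and 0.819 CPM in non-irradiated libraries, with 145 against 108 counts in all. One irradiated library lay within the range of the non-irradiated ones (log2 fold change 0.35, 95% interval 0.98-fold to 1.65-fold, adjusted p = 0.267). Wnt2b, a ligand made by gut mesenchyme, was at 0.857, 0.817, 0.853 and 0.923 CPM in irradiated libraries and 0.628, 0.890, 0.568 and 0.819 CPM in non-irradiated libraries (log2 fold change 0.25, adjusted p = 0.516). The Wnt2b value was 0.14 without non-irradiated library III and 0.01 without non-irradiated libraries I and III together. The fitted change was positive for all 6 tested ligands among the members, from 0.06 to 0.35 with a median of 0.14 on the log2 scale. None of them was called, and the sign for Wnt10b turned in 3 alternative settings. Wnt7b, a tested ligand outside the members, went the other way (log2 fold change -0.35, adjusted p = 0.0649), with groups that did not overlap. Wnt2, Wnt4 and Wnt6 had 0 to 14 counts per library and were not tested.

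A single R-spondin passed the filter on low counts, and it was not called. Rspo3, a ligand of the Lgr receptors, was at 10.1, 11.8, 10.9 and 10.7 CPM in irradiated libraries and 11.0, 10.4, 11.5 and 11.4 CPM in non-irradiated libraries. The groups overlapped and the means were 10.9 ± 0.703 CPM in irradiated and 11.1 ± 0.512 CPM in non-irradiated cells (0.98-fold, 95% interval 0.89 to 1.09, adjusted p = 0.883). Rspo3 made up 96.1% of the summed CPM per kb of the 4 R-spondins. Rspo1 had 24 counts in irradiated and 27 in non-irradiated libraries, Rspo2 14 in irradiated and 24 in non-irradiated libraries, and Rspo4 4 in irradiated and 7 in non-irradiated libraries, all under the filter.

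**Figure D3:**
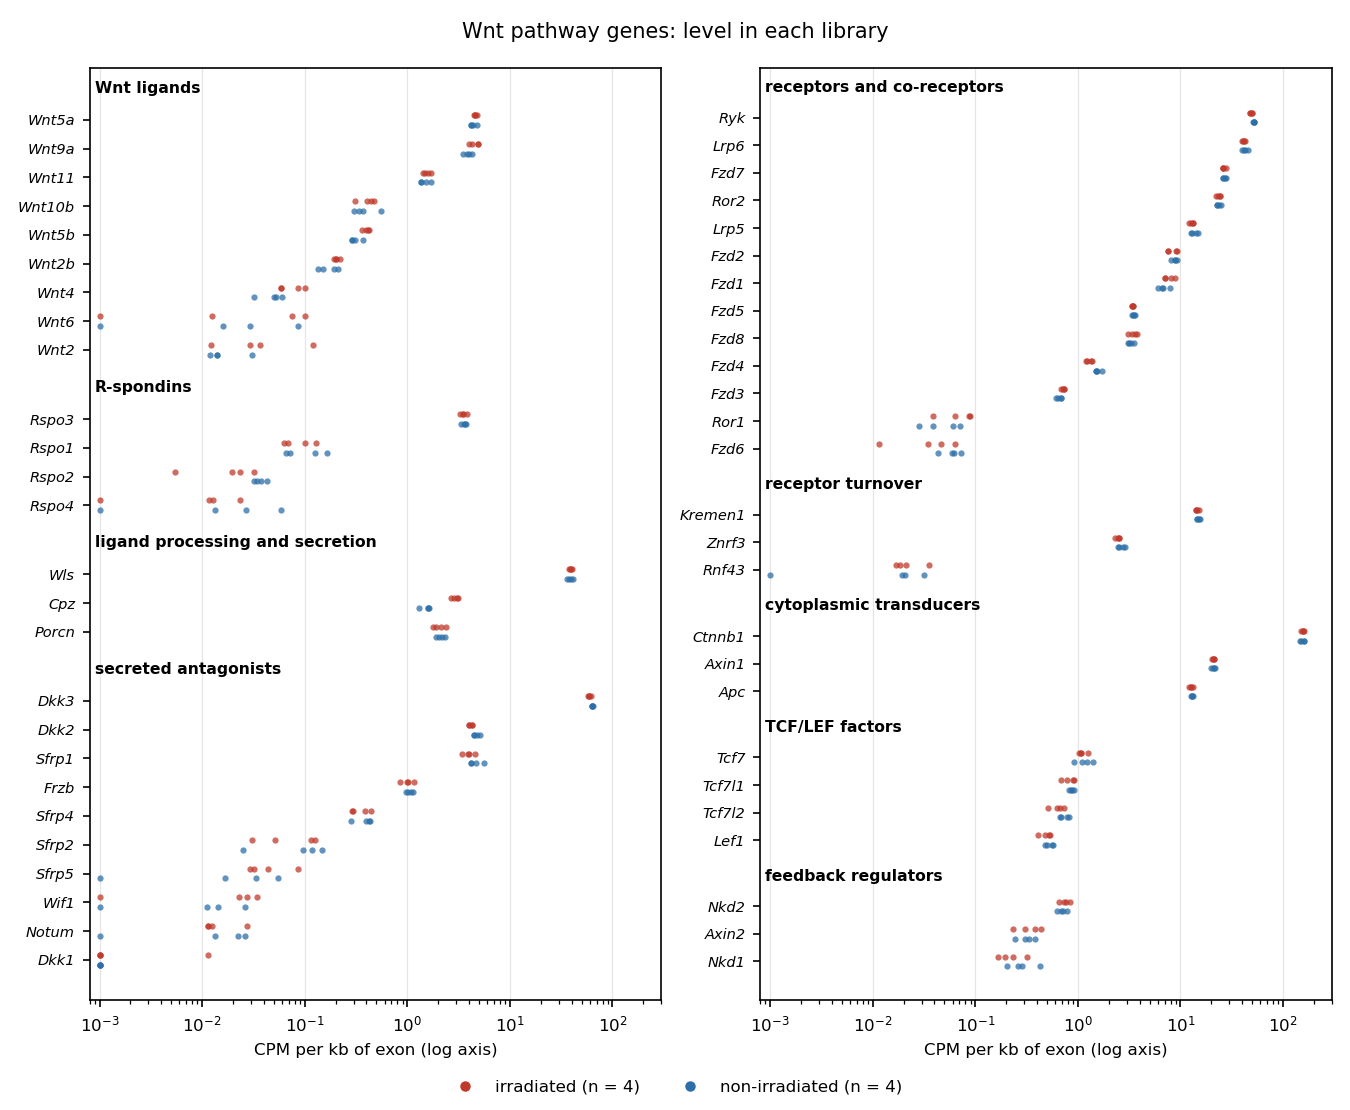
Level of all 52 members in each library as CPM per kb of exon on a log axis, by role, with irradiated libraries above non-irradiated ones in each row (a library without counts is drawn at the left edge, at 0.001). Levels span from Ctnnb1 at 155 to Dkk1 with 1 count in all, and the spread between genes exceeds that between libraries of a tested gene.

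Secreted antagonists bind Wnts, as Sfrp proteins, Frzb and Wif1 do, or the co-receptors, as Dkk1 and Dkk2 do. Dkk3, a relative of the Dkk proteins that is not known to bind Lrp6 strongly, was the most abundant, at 207, 197, 199 and 196 CPM in irradiated libraries, against 214, 213, 218 and 213 CPM in non-irradiated libraries. The groups did not overlap, but the difference was small (0.93-fold, 95% interval 0.89 to 0.98) and missed the threshold over all genes (adjusted p = 0.0787). It passed with DESeq2 (adjusted p = 0.0362). Dkk2 was at 16, 14.8, 15.7 and 14.9 CPM in irradiated libraries, against 16.4, 18.8, 16.4 and 17.6 CPM in non-irradiated libraries. It too separated the groups without being called (0.89-fold, 95% interval 0.81 to 0.98, adjusted p = 0.130). Sfrp1 was at 17.2, 14.9, 17.6 and 20.1 CPM in irradiated libraries and 20.4, 24.6, 18.4 and 18.2 CPM in non-irradiated libraries, with overlap (log2 fold change -0.22, SE 0.10, adjusted p = 0.226). It passed when no filter on low counts was used (adjusted p = 0.0312), but its log2 fold change was -0.12 without non-irradiated library II (adjusted p = 0.467) and -0.11 without both irradiated libraries I and II (adjusted p = 0.692).

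Frzb averaged 3.27 ± 0.434 CPM in irradiated and 3.42 ± 0.243 CPM in non-irradiated cells, and Sfrp4 averaged 1.48 ± 0.308 CPM in irradiated and 1.6 ± 0.283 CPM in non-irradiated cells. Neither was called. The fitted change was negative for all 5 tested antagonists, from -0.22 to -0.06 with a median of -0.10, and the sign for Frzb turned in 2 alternative settings. The summed level of the 10 antagonists was 232 to 245 CPM in irradiated libraries, against 254 to 262 CPM in non-irradiated libraries. Most of that sum is Dkk3. Dkk1, the classical inhibitor of Lrp6, had 1 count in irradiated library I and 0 in the other 7 libraries, where a count of 0 allows up to 3 counts, or 0.0807 to 0.104 CPM by library, a limit for counting error only. Sfrp2, Sfrp5, Wif1 and Notum, an enzyme that strips the lipid from Wnts, had 0 to 10 counts per library and were not tested.

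**Figure D4:**
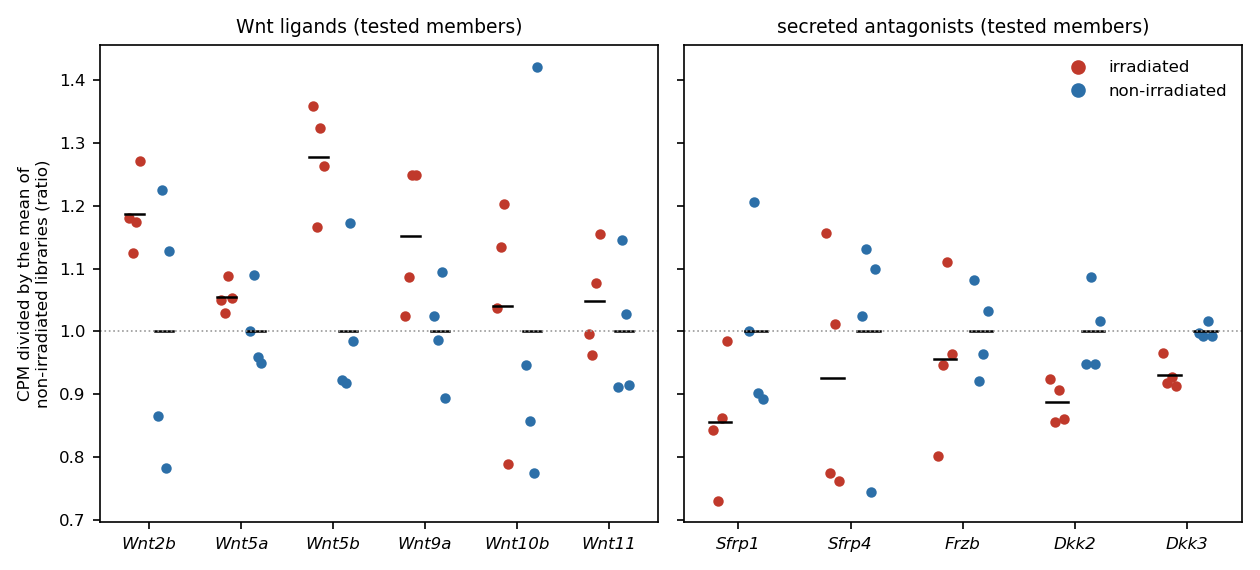
CPM in each library of the tested Wnt ligands (left) and secreted antagonists (right) among the members. Values are divided by the mean of the non-irradiated libraries for that gene (points), with group means (bars). Of these 11 genes only Dkk2 and Dkk3 had irradiated libraries that all lay below the non-irradiated ones, and no gene in the plot was called.

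Genes that turn receptors over were not called. Kremen1, which removes Lrp6 from the surface together with Dkk proteins, was at 117, 110, 112 and 110 CPM in irradiated libraries and 118, 112, 121 and 111 CPM in non-irradiated libraries (0.97-fold, 95% interval 0.91 to 1.03, adjusted p = 0.616). Znrf3 averaged 19.4 ± 0.891 CPM in irradiated and 21 ± 1.55 CPM in non-irradiated cells (adjusted p = 0.304). Rnf43, the other ubiquitin ligase among the members, had 20 counts in irradiated and 15 in non-irradiated libraries.

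None of the cytoplasmic transducers was called, and their intervals all lay within 1.5-fold. Ctnnb1, the gene of beta-catenin, had the highest level of all members per kilobase of exon (155 CPM per kb) and was at 805, 809, 836 and 781 CPM in irradiated libraries and 835, 767, 827 and 772 CPM in non-irradiated libraries. The fold change was 1.01 with a 95% interval of 0.95 to 1.07. Axin1, the scaffold of the destruction complex, was at 80.2 ± 1.92 CPM in irradiated and 80.0 ± 2.74 CPM in non-irradiated cells (95% interval 0.95-fold to 1.06-fold), and Apc, its partner, at 205 ± 7.88 CPM in irradiated and 208 ± 4.75 CPM in non-irradiated cells (95% interval 0.93-fold to 1.04-fold). Ctnnb1 shares 759 exonic bases with Ulk4 on the other strand, and whether counting used strand is not given in the sources used here. Ulk4 had 1833 counts over all libraries, against 109876 for Ctnnb1 in irradiated and 103116 in non-irradiated libraries. These are transcript levels, whereas beta-catenin is controlled mainly through its protein.

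None of the TCF/LEF factors, the DNA-binding partners of beta-catenin, was called. Tcf7l2 had the highest CPM of the 4, at 6.47, 5.81, 4.52 and 5.50 in irradiated libraries and 6.87, 5.82, 6.01 and 7.22 in non-irradiated libraries, with overlap (log2 fold change -0.21, SE 0.11, adjusted p = 0.303). The Tcf7l2 value was -0.12 without irradiated library III and -0.38 without irradiated libraries I and II together. The same pair left out gave -0.26 for Lef1 (-0.12 with all libraries), -0.14 for Tcf7 (-0.06) and -0.25 for Tcf7l1 (-0.08), none of them called. Per kilobase of exon the order was Tcf7 at 1.13, Tcf7l1 at 0.842, Tcf7l2 at 0.687 and Lef1 at 0.507 CPM per kb. Tcf7l1 exceeded Tcf7l2 in 7 of 8 libraries, and the other neighbours in this order kept it in 8 of 8. The fitted change was negative for all 4 genes, from -0.21 to -0.06, and none was called. The signs for Tcf7 and Tcf7l1 each turned without 1 of the libraries.

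Feedback regulators, which the canonical pathway itself induces in many tissues, were low per kilobase of exon, at 0.725 for Nkd2, 0.328 for Axin2 and 0.262 CPM per kb for Nkd1 over the 8 libraries, and none was called. Nkd2, an inhibitor that binds Dishevelled, was at 3.57, 3.66, 3.19 and 4.05 CPM in irradiated libraries and 3.28, 3.46, 3.79 and 2.99 CPM in non-irradiated libraries (adjusted p = 0.705). Axin2, the common readout of canonical signalling, was at 2.43, 1.27, 1.68 and 2.08 CPM in irradiated libraries and 1.85, 2.10, 1.35 and 1.67 CPM in non-irradiated libraries. The groups overlapped throughout, and the 95% interval of 0.80-fold to 1.45-fold held values on both sides of no change (adjusted p = 0.810). Nkd1 was at 0.885, 0.757, 1.07 and 1.45 CPM in irradiated libraries and 1.95, 1.3, 0.920 and 1.2 CPM in non-irradiated libraries, with overlap (log2 fold change -0.36, SE 0.25, adjusted p = 0.459). The Nkd1 value was -0.13 without non-irradiated library I, -0.24 without irradiated library II, -0.54 without irradiated library IV and -0.08 without irradiated libraries I and II together. Its 95% interval ran from 0.54-fold to 1.14-fold, so neither a rise nor a fall was detected.

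Of 97 further genes of the pathway, 76 were tested, 0 were higher and 3 were lower, 3.95% against the 6.74% of all genes. At an unadjusted p under 0.05 edgeR's test gave 18 of the 76 genes, against 21.2% of all genes. DESeq2 called 1 higher (Dact3) and 4 lower (the same 3 and Wnt7b), which is 7.04% of the 71 genes to which it gave an adjusted p, against 10.2% of all such genes. The median log2 fold change of the 76 genes was -0.04, against 0.00 for all genes. Lgr6, a receptor for R-spondins, was at 11.1, 10.4, 11.9 and 11.8 CPM in irradiated libraries, against 16.6, 13.8, 15 and 17.4 CPM in non-irradiated libraries. Its groups did not overlap, and it fell to 11.3 ± 0.707 CPM in irradiated cells, against 15.7 ± 1.61 CPM in non-irradiated cells (log2 fold change -0.47, SE 0.08, adjusted p = 0.00265). Lgr6 remained called whichever 1 library was left out, with adjusted p up to 0.0109. Lgr4, the related receptor, was at 21.7 ± 0.857 CPM in irradiated and 23.9 ± 0.775 CPM in non-irradiated cells, not overlapping and not called (log2 fold change -0.14, adjusted p = 0.122). Lgr5, the receptor that marks gut stem cells, averaged 0.0441 CPM in irradiated and 0.113 CPM in non-irradiated libraries and was not tested.

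The other called genes of that list were Gpc6 and Myc. Gpc6, a glypican of the cell surface, fell to 6.23 ± 0.369 CPM in irradiated cells, against 8.34 ± 1.12 CPM in non-irradiated cells (log2 fold change -0.42, SE 0.10, adjusted p = 0.0193), and lost its call without irradiated library III (0.0632), without irradiated libraries I and II together (0.0849) and without non-irradiated libraries I and III together (0.0584). Myc, a growth factor-responsive transcription factor that Wnt signalling induces in the gut epithelium, fell to 59.1 ± 2.36 CPM in irradiated cells, against 69.4 ± 3.92 CPM in non-irradiated cells (log2 fold change -0.23, SE 0.05, adjusted p = 0.0101). It kept its call whichever 1 library was left out and lost it without both irradiated libraries I and II (0.0742). Myc is 1 of 11 tested genes listed as common Wnt targets, and the other 10 were not called. The share called was 9.09%, against 6.74% of all tested genes. At an unadjusted p under 0.05 edgeR's test gave 6 of the 11, against 21.2% of all genes. Of these, Myc, Ccnd1, Cd44 and Ccn4 were lower in irradiated cells, and Tbx3 and Msx2 were higher. In that list 5 log2 fold changes were positive and 6 negative, from -0.23 to 0.40. None of the 22 further tested cytoplasmic transducers was called, and their log2 fold changes ran from -0.17 to 0.34.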

How the data were processed

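Polyadenylated RNA, per the labels, was sequenced in 8 libraries, and the authors deposited unnormalized counts for each Ensembl gene, 1 file per library. The submitters' processing notes name build mm10, featureCounts (version 1.5.0-p1), STAR (version 2.5.2a) and bcl2fastq (version 2.20.0.422). How strand and multi-mapped reads were handled, and which annotation release was counted, is not given in the sources used here, so genes that overlap another gene (11 of the 52 members) carry some uncertainty. Symbols, coordinates and exon lengths came from GENCODE M21, which named 55480 of 55573 identifiers.

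The 52 members and the lists were chosen with earlier results of these data known. The test was run in edgeR 4.0.16 (R 4.3.3). TMM factors and filterByExpr (minimum count 10, minimum total 15) kept 15259 genes. The quasi-likelihood test had group as its sole term, with Benjamini-Hochberg adjustment over all tested genes and calls under 0.05. SE is the log2 fold change over the square root of F, and 95% intervals use the moderated degrees of freedom. CPM uses the TMM factors, and CPM per kb divides it by the union of exons. Values in every library are given for called members, the highest by CPM in each role, the 4 largest uncalled changes (Ror1, Nkd1, Wnt5b and Wnt2b), and a few more chosen after their values were seen (Wnt9a, Dkk2, Sfrp1, Ryk, Axin2, Fzd1 and Fzd2).

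Alternatives were upper-quartile or RLE factors, voom in limma 3.58.1, DESeq2 1.42.0, a stricter adjusted p of 0.01, a block for the replicate numerals, a floor of 1 CPM in 4 libraries, dropping the filter (1 count in 1 library kept a gene), leaving out each library, leaving out irradiated I and II or non-irradiated I and III, and an offset for GC content and length (loess span 0.5) added after seeing the data.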

Additional observations from a re-analysis of the deposited data

Results flagged for a closer look

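Among the 78 sets of 4 library values of tested members, 3 had a library far from the other 3 by Dixon's 95% criterion, which chance alone meets in about 1 in 20 sets. Cpz in non-irradiated library III was 2.90 CPM, below 3.56 to 3.62 CPM in the other non-irradiated libraries, and without that library the call was kept (log2 fold change 0.87, adjusted p = 0.000152). Fzd4 in non-irradiated library I was 11.6 CPM, above 10.2 to 10.4 CPM in the others, and without it the call was lost (log2 fold change -0.25, adjusted p = 0.0859). Fzd7 in irradiated library IV was 127 CPM, above 118 to 119 CPM in the other irradiated libraries.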

How the results depend on the processing

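Cpz was called higher in all 19 alternatives, with log2 fold changes from 0.87 to 0.99. The count of members called lower, 1 (Fzd4), was 2 with DESeq2 and 2 without the filter, which added Dkk3 and Sfrp1 in that order. It was 0 at a threshold of 0.01, 0 without both irradiated libraries I and II, 0 without both non-irradiated libraries I and III, and 0 to 1 when 1 library was left out. Over all genes, 648 were called higher without the filter and 140 at a threshold of 0.01, and 221 to 402 without 1 library. Genes called lower numbered 634 of 15259 in the main fit, 775 of 15259 with DESeq2 and 798 of 32976 without the filter. They numbered 296 at 0.01, 295 without both irradiated libraries I and II and 415 to 611 without 1 library. Without both non-irradiated libraries I and III, 579 were called lower. The cause was not tested. With 4 same-numbered pairs of libraries, it cannot be told whether the replicate numerals pair the samples. The correlations of these pairs, in deviations from the group means, were -0.03 to 0.27, and 2 of 4 exceeded 0.1. Of 4 irradiated libraries, 1 correlated best with its own number. With the replicate block 550 genes were higher and 802 lower, against 395 and 634 without it, and 1 member was called in each direction.

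Signs turned for 17 uncalled members whose log2 fold changes were at most 0.11 in size. Without both irradiated libraries I and II the values were -0.02 for Wls, 0.06 for Frzb, 0.05 for Fzd2, 0.01 for Fzd7 and -0.0011 for Axin1. Without both non-irradiated libraries I and III they were -0.12 for Wnt10b, 0.01 for Porcn, -0.06 for Wls, 0.0043 for Fzd5, 0.0018 for Lrp5, -0.01 for Ror2, 0.01 for Kremen1 and -0.01 for Axin2. With the GC and length offset they were -0.02 for Ror2, -0.01 for Axin1 and 0.02 for Apc. With 1 library left out the ranges were -0.04 to 0.29 for Wnt10b, -0.07 to 0.01 for Rspo3, -0.13 to 0.01 for Porcn, -0.03 to 0.04 for Wls, -0.15 to 0.02 for Frzb, -0.03 to 0.01 for Fzd7, -0.01 to 0.03 for Ror2, -0.0043 to 0.03 for Ctnnb1, -0.02 to 0.02 for Axin1, -0.04 to 0.0024 for Apc, -0.15 to 0.04 for Tcf7, -0.14 to 0.0014 for Tcf7l1 and -0.05 to 0.25 for Axin2. The 13 members under the filter had 0 to 14 counts per library, too few for a comparison at this depth.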

Other observations

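Dact3, an intracellular Wnt regulator of the further pathway list, was singled out after its values were seen. It was at 24.7, 26.2, 32.4 and 36.5 CPM in irradiated libraries I to IV and 22.0, 24.6, 25.9 and 21.7 CPM in non-irradiated libraries, and was not called (log2 fold change 0.34, adjusted p = 0.0771). Without both irradiated libraries I and II, which have the high mitochondrial rRNA, its log2 fold change was 0.54 with an adjusted p = 0.00329, and with the replicate block the adjusted p was 0.0467. DESeq2 gave an adjusted p = 0.0172, leaving out 1 library gave 0.0279 to 0.216, and the GC and length offset gave a log2 fold change of 0.20 with an adjusted p = 0.158. Fzd1 divided the irradiated libraries the same way, at 29.7, 29.4, 34.2 and 37.0 CPM in irradiated I to IV, against 28.3, 33.5, 28.0 and 25.3 CPM in non-irradiated I to IV. Fzd2 was at 27.8, 27.7, 33.6 and 33.0 CPM in irradiated I to IV, against 33.9, 32.6, 32.5 and 29.7 CPM in non-irradiated I to IV. Wnt7b, a ligand of the further list, was at 6.2 ± 0.482 CPM in irradiated and 7.87 ± 1.15 CPM in non-irradiated cells (SD, n = 4 each), with groups that did not overlap (log2 fold change -0.35, adjusted p = 0.0649). It passed with DESeq2 (adjusted p = 0.0344), without the filter (0.0114) and with the GC and length offset (0.0354). It did not pass with any 1 library left out (adjusted p 0.0587 to 0.165) or without both irradiated libraries I and II (0.299).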
